A study of Mus musculus with 10 samples.

Results

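A set of 9 genes of sphingosine 1-phosphate (S1P) sensing and tissue exit was followed in sorted plasma cells of the mouse spleen. The 9 genes are S1pr1, S1pr2, S1pr3 and S1pr4, which encode S1P receptors, Gna13, Gnai2 and Arhgef1, which pass the receptor signal on, Klf2, a transcription factor that drives S1pr1, and Cd69, a surface protein that holds S1PR1 inside the cell. They were taken by gene symbol from 47719 Ensembl identifiers present in the file of every library. All 9 were found, and 8 had a mean of at least 1 FPKM (fragment counts scaled by transcript length and by library size) over the libraries and entered the test. S1pr3 lay under that limit.

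The samples were 5 libraries of IgG1 plasma cells and 5 libraries of IgM plasma cells, all from spleen. In both groups the donor B cells had 3 engineered alleles. S1PR2-CreERT2 is a Cre that tamoxifen switches on, tied to S1pr2, which is active in the germinal centre. Ai14 gives red tdTomato after Cre has acted, and B1-8germ is a germline heavy chain for the hapten NP. Wild-type hosts of these cells were immunised with NP-CGG in alum (day 0) and later given tamoxifen (days 5 and 6). Donor tdTomato+ cells of each isotype were sorted on day 10. The labels give no age and do not tie libraries to animals, and the p-values below therefore cover spread among these samples only, part or all of which may be technical. The sort itself required past activity of the S1pr2-linked Cre, so the presence of S1pr2 transcripts is not independent of how the cells were obtained. Whether the Cre construct adds reads to S1pr2 is not given in the sources used here. Estimated depth was 26420000 to 37730000 fragments in the IgG1 libraries and 26900000 to 31190000 in the IgM libraries. Genes listed above 0 numbered 13286 to 13961 per IgG1 library and 15121 to 15800 per IgM library. All 8 plasma cell markers were expressed above the limit and passed the test described below, 1 upward and 7 downward in IgG1. Of all tested genes 38.3% passed it. The surface marker Sdc1 stood at 258 ± 12.3 FPKM in IgG1 cells and 284 ± 12.8 FPKM in IgM cells (SD, n = 5 each).

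S1P is a lipid that is abundant in blood and lymph and scarce inside lymphoid tissue, and its receptors let lymphocytes sense that difference. S1PR1 couples to inhibitory G proteins, which contain the Gnai2 product, and drives exit from tissue. S1PR2 couples to the G alpha 13 protein, which acts through the exchange factor encoded by Arhgef1 and restrains migration, and it holds germinal centre B cells in the follicle. KLF2 raises S1pr1 transcription in lymphocytes, and CD69, which appears on activation, binds S1PR1 and takes it off the surface. Plasma cells use S1PR1 to leave the spleen for the blood and bone marrow.

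The regions ahead of 3 of these genes are shown because they belong to an expressed receptor linked to the Cre, a second expressed receptor, and the factor KLF2. Each runs from 250 bases before to 50 bases after the RefSeq start, 5′ to 3′ on the gene's strand, in build GRCm38.p6. RefSeq windows were found for 6 of the 9 genes, and not for S1pr1, Cd69 and Gnai2. Capitals mark the letters CACCC, a box that KLF factors bind, or GGGTG on the other strand, and a MEF2 pattern, CTA and TAG separated by any 4 bases, which reads the same on both strands. The S1pr2 window is chr9:20976744-20977043 on the minus strand, the S1pr4 window chr10:81500088-81500387 on the minus strand and the Klf2 window chr8:72318812-72319111 on the plus strand.
S1pr2: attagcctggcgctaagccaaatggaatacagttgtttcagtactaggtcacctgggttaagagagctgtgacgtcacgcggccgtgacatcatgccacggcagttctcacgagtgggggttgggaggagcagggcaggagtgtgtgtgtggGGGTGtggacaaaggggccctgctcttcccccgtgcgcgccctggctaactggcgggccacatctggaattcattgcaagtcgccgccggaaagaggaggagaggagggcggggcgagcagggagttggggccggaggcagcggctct
S1pr4: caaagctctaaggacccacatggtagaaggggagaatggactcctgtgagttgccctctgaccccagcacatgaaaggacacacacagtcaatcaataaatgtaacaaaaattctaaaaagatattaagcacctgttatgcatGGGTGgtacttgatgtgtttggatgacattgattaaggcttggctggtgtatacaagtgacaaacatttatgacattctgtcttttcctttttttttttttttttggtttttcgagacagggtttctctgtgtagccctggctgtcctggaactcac
Klf2: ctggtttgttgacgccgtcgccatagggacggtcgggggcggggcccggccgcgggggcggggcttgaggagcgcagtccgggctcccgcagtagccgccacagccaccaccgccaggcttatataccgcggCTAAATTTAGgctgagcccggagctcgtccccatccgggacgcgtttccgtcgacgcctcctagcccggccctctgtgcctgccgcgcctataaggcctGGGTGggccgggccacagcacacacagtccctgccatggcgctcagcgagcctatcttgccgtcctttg
Each window held 1 CACCC box, which 57.5% of all 32851 RefSeq windows also hold. The Klf2 window alone among those of the 6 genes held the MEF2 pattern, as CTAAATTTAG, and 3.69% of all windows hold it. No overlap between the patterns occurred in the printed windows. The FOXO letters GTAAACA, searched on both strands, were in none of the windows of the 6 genes and in 3.65% of all windows. These are matches of letters and not measured binding.

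Of these genes Cd69 showed the largest difference, lower in IgG1 cells, while none of the 3 tested receptors passed. Of the 8 tested genes, 1 was lower in IgG1 cells (Cd69), 1 was higher (Gnai2) and 6 did not pass (limma, Benjamini-Hochberg adjusted p under 0.05 over 9900 genes). The same threshold was passed by 38.3% of all tested genes, 18.1% higher and 20.2% lower in IgG1 cells, so these counts are not above the background. The IgG1 and IgM values did not overlap for these same 2 genes, against 26.3% of all tested genes. Over all genes 1791 were higher and 2001 lower in IgG1 cells. That split was 2182 higher and 1510 lower with quantile normalization and 2154 higher and 1320 lower after removal of length and GC trends. The first of these moved the median log2 difference of all genes to 0.06 and the second to 0.05, against −0.05 as reported.

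**Figure D1:**
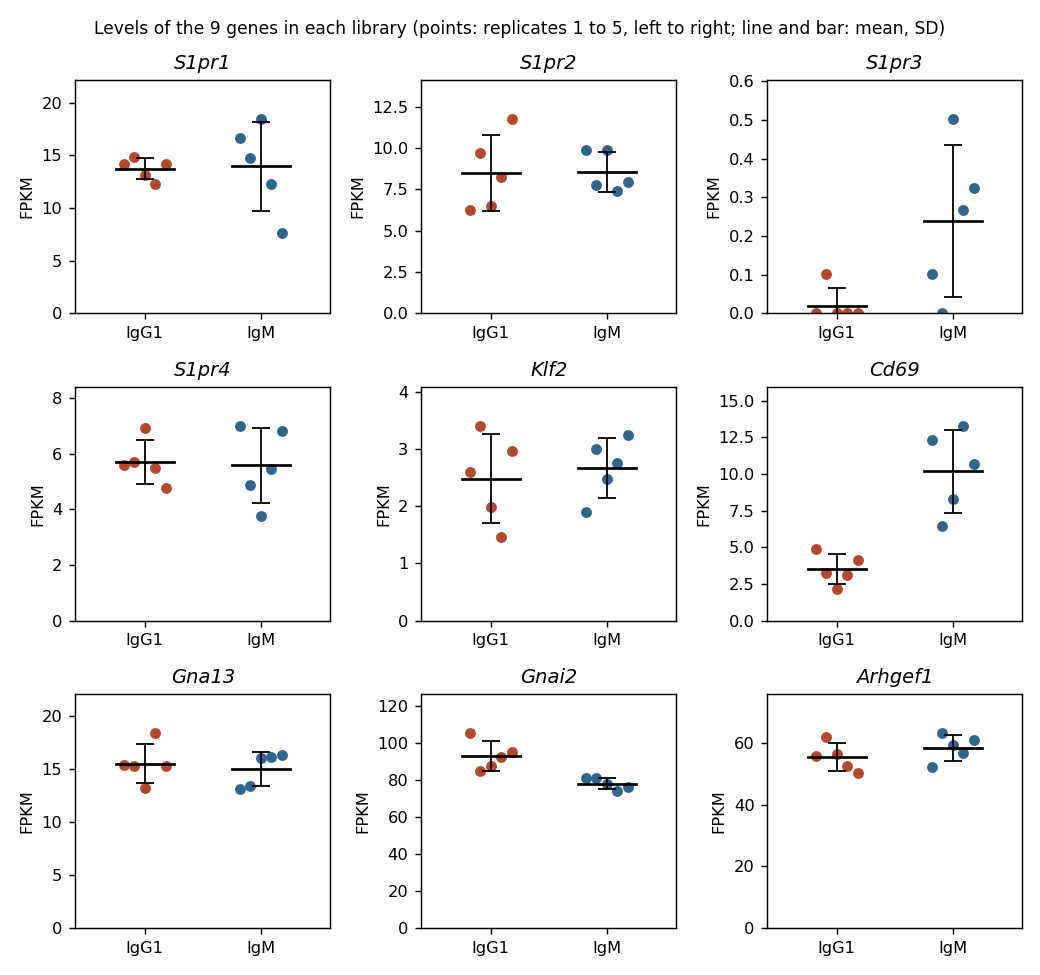
FPKM of each gene (vertical axes, linear, starting at 0) in the 5 IgG1 and the 5 IgM libraries. Points are libraries, lines are means and bars are SDs; only Cd69 and Gnai2 show IgG1 and IgM points that do not overlap.

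S1pr1, the exit receptor (chr3:115710433-115715072, minus strand; this and the following gene spans are GENCODE release M21, GRCm38), was the most abundant of the S1P receptors by mean in both groups. It stood at 14.2, 14.8, 13.2, 12.2 and 14.2 FPKM in IgG1 replicates 1 to 5, and at 16.7, 14.8, 18.5, 12.3 and 7.60 FPKM in IgM replicates 1 to 5. The IgG1 values were close together and lay inside the wider range of the IgM values, whose lowest, replicate 5, was also the lowest of all 10 libraries. The means were 13.7 ± 1.02 FPKM in IgG1 and 14.0 ± 4.23 FPKM in IgM cells (SD, n = 5 each), and the log2 difference, IgG1 minus IgM on log2(FPKM + 1), was 0.03 (SE 0.18, 95% interval −0.35 to 0.41, limma adjusted p = 0.917). Without IgM replicate 5 the difference was −0.16 (limma adjusted p = 0.420).

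S1pr2, the receptor that confines germinal centre B cells (chr9:20962361-20976781, minus strand), was measurable in plasma cells of both isotypes. Its values were 6.23, 9.72, 6.50, 8.26 and 11.8 FPKM in IgG1 libraries and 9.88, 7.75, 9.87, 7.39 and 7.98 FPKM in IgM libraries. The groups overlapped, with the lowest and the highest value both in IgG1. The means were 8.50 ± 2.32 FPKM in IgG1 and 8.57 ± 1.21 FPKM in IgM cells (SD, n = 5 each; log2 difference −0.04, SE 0.18, 95% interval −0.41 to 0.34, limma adjusted p = 0.897). The germinal centre regulator Bcl6 averaged 0.169 FPKM in IgG1 and 0.450 FPKM in IgM cells. Of 8 germinal centre markers, S1pr2 included, 5 were tested and 1 passed: Gcsam, a germinal centre signalling adaptor, which fell to 4.21 ± 0.819 FPKM in IgG1 cells, against 14.6 ± 0.849 FPKM in IgM cells (limma adjusted p = 2.66e-07). The share that passed, 20.0%, was below the 38.3% of all tested genes, and it was all lower, beside 20.2% lower among all tested genes. The summed level of the 8 markers was 57.1 to 69.7 FPKM in IgG1 and 69.1 to 85.4 FPKM in IgM libraries. Its largest parts were Fas, at 25.7 FPKM in IgG1 and 21.7 FPKM in IgM cells, and Basp1, at 21.1 and 31.0 FPKM. These went opposite ways and neither passed (limma adjusted p = 0.132 and 0.0836).

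S1pr4, a receptor of haematopoietic cells (chr10:81497747-81500132, minus strand), was the third of the expressed receptors by mean. It stood at 5.57, 5.70, 6.93, 5.48 and 4.77 FPKM in IgG1 libraries and at 6.99, 4.88, 3.76, 5.45 and 6.79 FPKM in IgM libraries. The IgM libraries held the lowest and the highest value. In IgM replicate 3 the highest S1pr1 level stood beside the lowest S1pr4 level, and in IgM replicate 5 the lowest S1pr1 level stood beside the second highest S1pr4 level of that group. The means were 5.69 ± 0.779 FPKM in IgG1 and 5.57 ± 1.35 FPKM in IgM cells (SD, n = 5 each; log2 difference 0.04, SE 0.18, 95% interval −0.34 to 0.43, limma adjusted p = 0.876).

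S1pr3, a receptor best known from endothelium and marginal zone B cells (chr13:51408639-51422797, plus strand), was at or below 0.503 FPKM in every library. It was listed at 0 in 4 IgG1 libraries and at 0.102 FPKM in replicate 2, and at 0.103, 0, 0.503, 0.267 and 0.324 FPKM in IgM replicates 1 to 5. An exact 0 in these files can be a failed estimate. Over all genes, too, every IgG1 library listed fewer genes above 0 (13286 to 13961) than any IgM library (15121 to 15800). A single fragment would add about 0.00622 to 0.00888 FPKM across the 10 libraries, counted on the longest transcript, so the highest value corresponds to about 67 fragments. Without a filter on low values the log2 difference was −0.27 (limma adjusted p = 0.180). S1pr5, the receptor of natural killer cells and not among the 9 genes, was listed at 0 in 9 libraries and at 0.102 FPKM in IgG1 replicate 2. It lies 266130 bases from S1pr2 on chromosome 9.

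Shares of receptor transcripts do not depend on scaling between libraries by 1 factor, and they were not tested. S1pr1 made up 49.2% ± 3.29 of the summed FPKM of the 5 receptors in IgG1 libraries and 48.4% ± 8.98 in IgM libraries (SD, n = 5 each). S1pr2 made up 30.1% ± 5.98 in IgG1 and 30.4% ± 2.73 in IgM libraries. S1pr4 made up 20.6% ± 3.87 in IgG1 and 20.3% ± 6.66 in IgM libraries. Each of these pairs of means differed by less than the SD of either group. S1pr3 made up 0.0671% in IgG1 and 0.866% in IgM libraries on average. IgM replicate 5 had the lowest S1pr1 share, 33.5%, and the highest S1pr4 share, 29.9%, of all libraries, and it alone had less S1pr1 than S1pr2 (ratio 0.952). The summed level was 26.0 to 30.8 FPKM in IgG1 and 22.7 to 33.6 FPKM in IgM libraries. In bulk RNA, fewer cells that express a receptor and less receptor RNA per cell cannot be told apart.

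**Figure D2:**
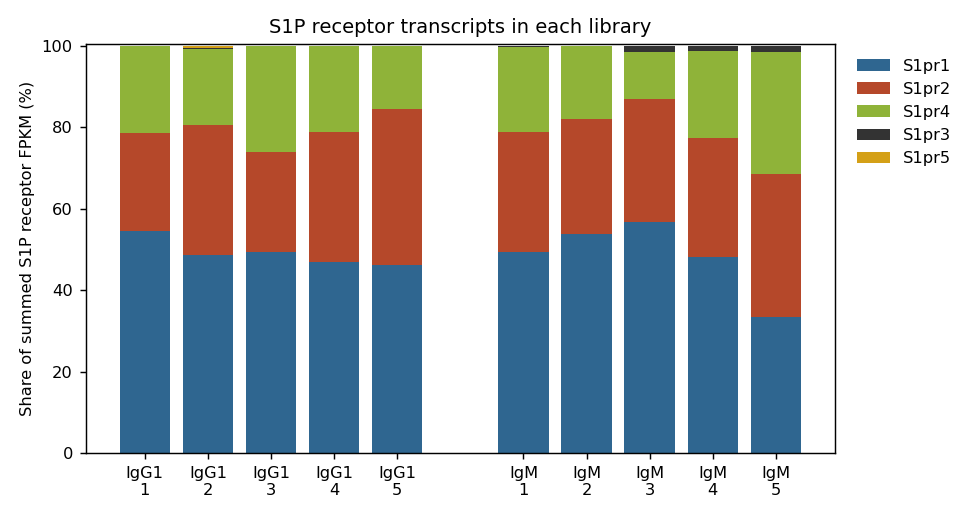
Share of each receptor (percent of the summed FPKM of S1pr1 to S1pr5, vertical axis) in each library, IgG1 replicates 1 to 5 at left and IgM replicates 1 to 5 at right. S1pr1, S1pr2 and S1pr4 fill nearly all of each bar, and IgM replicate 5 has the smallest S1pr1 part, 33.5%.

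Cd69, which retains activated lymphocytes in tissue (chr6:129267325-129275436, minus strand), was lower in every IgG1 library than in any IgM library. It stood at 4.89, 3.28, 2.16, 3.11 and 4.11 FPKM in IgG1 replicates 1 to 5, and at 12.3, 6.46, 8.27, 13.3 and 10.7 FPKM in IgM replicates 1 to 5. The highest IgG1 value was below the lowest IgM value. Its mean fell to 3.51 ± 1.04 FPKM in IgG1 cells, against 10.2 ± 2.82 FPKM in IgM cells (SD, n = 5 each), a level 2.90 times as high in IgM cells. The log2 difference was −1.30 (SE 0.21, 95% interval −1.75 to −0.86, limma adjusted p = 9.60e-05), which is at the 96.0th percentile of the tested genes by size. It passed under each of the 21 other settings tried, with log2 differences from −1.51 to −0.82. The ratio of S1pr1 to Cd69 FPKM within a library was 2.91 to 6.09 in IgG1 and 0.713 to 2.29 in IgM libraries, again without overlap. The ratio of Klf2 to Cd69 FPKM was 0.471 to 1.04 in IgG1 and 0.153 to 0.464 in IgM libraries.

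Immediate early genes, which also rise on activation and during tissue handling, were lower in IgG1 cells together with Cd69. Of 14 listed, 9 were tested, and 8 were lower and 0 higher in IgG1 cells, with Btg2 alone not passing, beside 20.2% lower among all tested genes. The summed level of the 14 genes was 222 to 305 FPKM in IgG1 and 456 to 690 FPKM in IgM libraries. Fos, a component of AP-1, was at 1.45, 7.98, 6.94, 6.42 and 27.0 FPKM in IgG1 libraries and at 59.4, 52.7, 63.6, 79.0 and 141 FPKM in IgM libraries. The IgG1 and IgM values of Fos did not overlap. All 4 tested markers of mature B cells, of 8 listed, were lower in IgG1 cells as well, with a summed level of 78.6 to 95.7 FPKM in IgG1 and 118 to 145 FPKM in IgM libraries. Of the T cell markers, another cell type that carries CD69, the T cell receptor constant gene Trac was at 0.201 ± 0.288 FPKM in IgG1 and 2.37 ± 1.03 FPKM in IgM cells. Cd3e was at or below 0.0887 FPKM in every library. Cd3d averaged 0 FPKM in IgG1 and 0.209 FPKM in IgM cells, with 0.947 FPKM in IgM replicate 4. Cd3g averaged 0.00744 FPKM in IgG1 and 0.372 FPKM in IgM cells, with 1.22 FPKM in IgM replicate 5. The 8 T cell markers summed to 2.61 to 4.54 FPKM in IgG1 and 4.24 to 6.75 FPKM in IgM libraries, and of the 3 that were tested, Cd4 was higher and Trac lower in IgG1 cells. Cd4 averaged 1.87 FPKM in IgG1 and 0.28 FPKM in IgM cells, and both genes entered the test only through their higher group. Natural killer cell markers summed to no more than 3.12 FPKM in IgG1 and 2.07 FPKM in IgM libraries, with Ncr1 and Gzma at 0 in all. Macrophage and monocyte markers summed to 100 to 145 FPKM in IgG1 and 95.7 to 211 FPKM in IgM libraries, nearly all of it Ly6c2, at 110 FPKM in IgG1 and 132 FPKM in IgM cells, while Csf1r averaged 0.582 FPKM in IgG1 and 0.231 FPKM in IgM cells. Neutrophil markers, 6 of 7 at 0 in all libraries, summed to no more than 1.24 FPKM in IgG1 and 0.659 FPKM in IgM libraries. The part of these genes or cells in the Cd69 result was not tested.

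Klf2, the factor upstream of S1pr1 (chr8:72319033-72321656, plus strand), was low in all libraries. Its values were 2.59, 3.40, 1.98, 1.47 and 2.97 FPKM in IgG1 libraries and 1.89, 3.00, 2.47, 2.75 and 3.23 FPKM in IgM libraries. The groups overlapped, and both extremes were IgG1 libraries. The means were 2.48 ± 0.771 FPKM in IgG1 and 2.67 ± 0.520 FPKM in IgM cells (SD, n = 5 each; log2 difference −0.09, SE 0.21, 95% interval −0.54 to 0.36, limma adjusted p = 0.758). Mef2c, a MEF2 factor whose kind binds the pattern printed above in the Klf2 window, was at 71.3, 89.0, 73.0, 88.7 and 88.4 FPKM in IgG1 libraries and at 161, 163, 156, 182 and 157 FPKM in IgM libraries. It was lower in every IgG1 library (log2 difference −0.99, SE 0.08, limma adjusted p = 2.32e-08).

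Gnai2, the inhibitory G protein subunit through which S1PR1 and chemokine receptors signal (chr9:107614125-107635367, minus strand), was the most abundant of the 9 genes and slightly higher in IgG1 cells. It stood at 106, 85.0, 87.6, 92.7 and 95.2 FPKM in IgG1 libraries and at 81.0, 81.1, 78.1, 74.0 and 76.5 FPKM in IgM libraries. Each IgG1 value was above each IgM value. Its mean rose to 93.2 ± 8.00 FPKM in IgG1 cells, against 78.1 ± 3.05 FPKM in IgM cells (SD, n = 5 each), a ratio of 1.19 (log2 difference 0.25, SE 0.07, 95% interval 0.10 to 0.40, limma adjusted p = 0.00987). The call ended with quantile normalization (0.17, limma adjusted p = 0.0722) and once trends with length and GC content were removed (0.12, limma adjusted p = 0.191). Gm19721, a gene model on the same strand inside its span, was at 0 FPKM in IgG1 and 0.0048 FPKM in IgM cells on average.

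Gna13 (chr11:109362831-109401369, plus strand) and Arhgef1 (chr7:24902912-24926594, plus strand), which carry the restraining signal of S1PR2, did not pass. Gna13 was at 15.3, 15.2, 13.2, 18.4 and 15.3 FPKM in IgG1 libraries and at 13.1, 13.3, 16.0, 16.2 and 16.3 FPKM in IgM libraries, and the groups overlapped (log2 difference 0.04, SE 0.13, 95% interval −0.22 to 0.31, limma adjusted p = 0.819). The antisense gene model Gm11696 overlaps it, and the library kit keeps no strand, but that model stood at 0.299 FPKM in IgG1 and 0.298 FPKM in IgM cells. Arhgef1 was at 55.8, 62.1, 56.5, 52.7 and 50.2 FPKM in IgG1 libraries and at 52.4, 63.3, 59.4, 56.9 and 61.1 FPKM in IgM libraries, again with overlap (log2 difference −0.08, SE 0.08, 95% interval −0.25 to 0.09, limma adjusted p = 0.469). The ratio of Gna13 to Gnai2 FPKM was 0.145 to 0.198 in IgG1 and 0.162 to 0.218 in IgM libraries. For the 6 genes that did not pass, these intervals bound the difference and do not show that the isotypes are alike; the widest was that of Klf2.

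**Figure D3:**
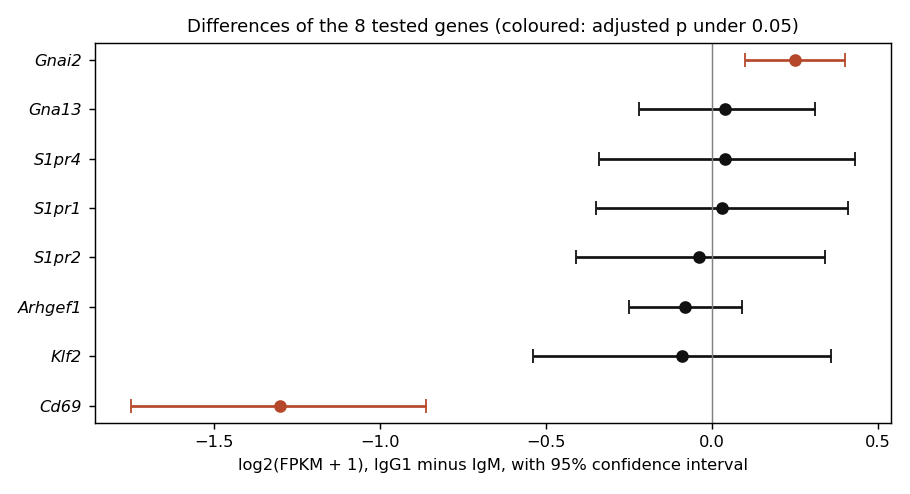
Log2 difference, IgG1 minus IgM on log2(FPKM + 1) (horizontal axis), with its 95% confidence interval for each of the 8 tested genes. Cd69 at −1.30 and Gnai2 at 0.25 have intervals that leave out 0, and the other 6 intervals include it.

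In order of level within IgG1 cells the genes ran Gnai2, Arhgef1, Gna13, S1pr1, S1pr2, S1pr4, Cd69, Klf2 and S1pr3, with FPKM being per length. In IgM cells the order was the same except that Cd69 stood between S1pr1 and S1pr2. Among neighbours in the IgG1 order, Gna13 and S1pr1, S1pr2 and S1pr4, S1pr4 and Cd69, and Cd69 and Klf2 had ranges that overlapped over the 5 libraries. In the IgM order the overlapping neighbours were Gna13 and S1pr1, S1pr1 and Cd69, and Cd69 and S1pr2. Gnai2 over Arhgef1 and Arhgef1 over Gna13 were apart in every library of both groups.

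The genes most like the 2 that passed, by Pearson correlation of log2(FPKM + 1) over the 10 libraries among 6455 protein-coding genes, are given next. For Cd69 they were Nt5c2 (r = 0.971), a nucleotidase at 7.62 FPKM in IgG1 and 11.5 FPKM in IgM cells, Hbp1 (r = 0.968), a transcriptional repressor at 40.0 FPKM in IgG1 and 77.8 FPKM in IgM cells, and Ints6l (r = 0.961). For Gnai2 they included the ATP synthase subunit gene Atp5a1 (r = 0.960) and Igbp1 (r = 0.952). With group means subtracted, Hspa4 (r = 0.929) was nearest to Cd69 and Tbc1d10c (r = 0.940) to Gnai2. The leading gene was Agbl5 for S1pr1 (r = 0.922), Fem1a for S1pr2 (r = 0.859), Suclg2 for S1pr4 (r = 0.904), Mfsd5 for Klf2 (r = 0.907), Snx19 for Arhgef1 (r = 0.929) and the unnamed model B230307C23Rik for Gna13 (r = 0.854). These are descriptions over libraries that share 2 groups, and correlations of this size among so many genes carry no weight of their own.

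Another 7 lists of genes around the 9 were read from the same test. Outside the 9 genes they held 113 genes, of which 79 were tested, and 14 were higher and 16 lower in IgG1 cells. That is 38.0% of those tested, beside the 38.3% of all tested genes, and their median log2 difference was 0.04, beside −0.05 for all genes.

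Enzymes that make, degrade or carry S1P and its precursors went both ways. Of 20 listed, 11 were tested, 1 was higher and 3 were lower in IgG1 cells, which is 36.4% beside 38.3% of all tested genes. Sgpp2, an S1P phosphatase, stood at 3.94, 4.09, 6.09, 4.10 and 5.57 FPKM in IgG1 libraries and at 2.85, 1.37, 1.97, 2.67 and 1.33 FPKM in IgM libraries, with no overlap (log2 difference 0.94, SE 0.21, limma adjusted p = 0.0018). The lower genes were the acid ceramidase gene Asah1, at 34.2 ± 4.46 FPKM in IgG1 and 48.4 ± 6.35 FPKM in IgM cells, and the ceramide synthase genes Cers2 and Cers6, with log2 differences of −0.22 and −0.63. The call of Cers6 ended without a filter, with quantile normalization and once length and GC trends were removed (limma adjusted p = 0.0625, 0.0530 and 0.226). The kinase gene Sphk1 and the S1P exporter gene Spns2 were listed at 0 FPKM in all libraries, which can be a failed estimate. The other kinase gene, Sphk2, averaged 6.44 FPKM in IgG1 and 6.86 FPKM in IgM cells. The S1P lyase gene Sgpl1 averaged 17.7 FPKM in IgG1 and 17.4 FPKM in IgM cells, and neither of these passed.

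In the G alpha 12/13 arm, 13 of 15 listed genes were tested, 0 were higher and 4 were lower in IgG1 cells, with a median log2 difference of −0.31. The share that passed, 30.8%, was below the 38.3% of all tested genes. All of it was lower in IgG1 cells, beside 20.2% lower among all tested genes. Rhob, a small GTPase induced by growth signals, was at 9.46, 7.87, 6.82, 6.88 and 7.71 FPKM in IgG1 libraries and at 14.2, 15.2, 14.3, 15.7 and 15.5 FPKM in IgM libraries (log2 difference −0.88, SE 0.13, limma adjusted p = 4.42e-05). Arhgef12, an exchange factor related to Arhgef1, averaged 1.99 ± 0.981 FPKM in IgG1 and 4.68 ± 0.630 FPKM in IgM cells. Rock1, a kinase that acts on the cytoskeleton, averaged 12.1 ± 1.18 FPKM in IgG1 and 19.3 ± 3.39 FPKM in IgM cells, and Gpr65, an acid-sensing receptor, 16.6 ± 3.50 FPKM in IgG1 and 24.1 ± 3.26 FPKM in IgM cells. Removing length and GC trends ended the calls of Rock1 (−0.23, limma adjusted p = 0.220) and Gpr65 (−0.34, limma adjusted p = 0.0576).

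Genes of the inhibitory G protein and Rac arm went both ways. Of 25 listed, 20 were tested, 6 were higher and 3 lower in IgG1 cells, Gnai2 included, which is 45.0% beside 38.3% of all tested genes. Gng5, a G protein gamma subunit, averaged 230 ± 14.4 FPKM in IgG1 and 154 ± 8.33 FPKM in IgM cells (log2 difference 0.58, SE 0.06, limma adjusted p = 4.68e-07). Coro1a, an actin regulator needed for lymphocyte exit, averaged 289 FPKM (254 to 305) in IgG1 and 195 FPKM (179 to 210) in IgM cells (log2 difference 0.56, limma adjusted p = 9.41e-07). The Rac GTPase gene Rac2 and the exchange factor gene Dock8 were also higher, with log2 differences of 0.24 and 0.58. The lower genes were Pik3cg, a kinase downstream of G proteins (log2 difference −0.43), Gnaz, an inhibitory G alpha subunit (−0.73), and Gnai3, the near relative of Gnai2 (−0.27). The call of Gnai3 ended under 4 other settings and without any of IgG1 replicates 2, 3 and 4 or IgM replicates 2 and 5 (limma adjusted p = 0.0517 to 0.889). Reads that fit both Gnai2 and Gnai3 could be split between them by the counting, which the sources used here do not describe. Removing length and GC trends ended the call of Pik3cg (−0.16, limma adjusted p = 0.120).

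**Figure D4:**
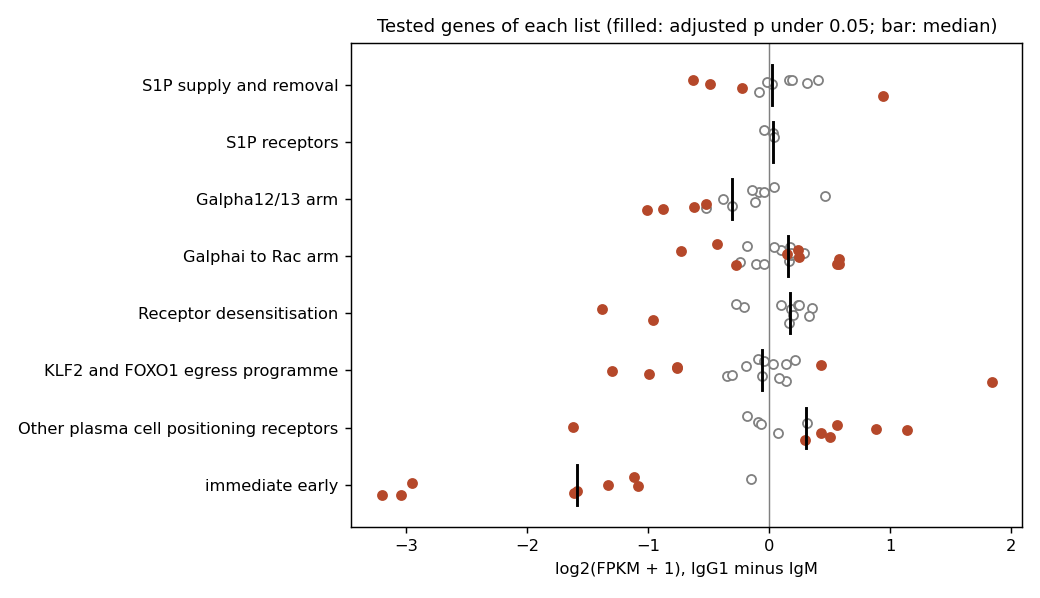
Log2 difference, IgG1 minus IgM on log2(FPKM + 1) (horizontal axis), of each tested gene in 7 pathway lists and in the list of immediate early genes. Filled points passed at an adjusted p under 0.05 and black bars are list medians, which run from −1.59 for immediate early genes to 0.31 for positioning receptors.

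Among 24 listed symbols of genes that switch receptors off, 22 were found, 12 were tested, 0 were higher and 2 were lower in IgG1 cells. The share that passed, 16.7%, all of it lower, was below the 38.3% of all tested genes that passed and the 20.2% that were lower. The median log2 difference was 0.17, and the list summed to 230 to 262 FPKM in IgG1 and 212 to 227 FPKM in IgM libraries. The number that passed was 0 at a minimum mean of 5 FPKM and 4 with median-ratio scaling. Rgs1, which ends signalling by inhibitory G proteins and is induced on B cell activation, was at 0, 0, 0.408, 0 and 1.06 FPKM in IgG1 libraries and at 0.946, 1.17, 4.16, 4.89 and 1.74 FPKM in IgM libraries. The ranges touched, since IgG1 replicate 5 was above IgM replicate 1 (log2 difference −1.38, SE 0.34, limma adjusted p = 0.00361). With means of 0.294 FPKM in IgG1 and 2.58 FPKM in IgM cells, Rgs1 entered the test only through its IgM level. Grk4, a receptor kinase, was at 0.137 to 3.62 FPKM in IgG1 and 2.88 to 3.07 FPKM in IgM libraries, and its call ended under 5 settings, among them leaving out IgG1 replicate 1 or 2 (limma adjusted p = 0.0543 to 0.128).

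In the list around KLF2 and FOXO1, 21 genes with S1pr1, Klf2 and Cd69 among them, 17 were tested, 2 were higher and 4 lower in IgG1 cells. The share that passed was 35.3%, beside 38.3% of all tested genes. Itgb7, a homing integrin subunit, was higher in every IgG1 library, at 27.8 to 38.7 FPKM in IgG1 and 5.79 to 12.6 FPKM in IgM libraries, and the adhesion receptor gene Cd44 was at 78.8 ± 3.04 FPKM in IgG1 and 58.4 ± 5.19 FPKM in IgM cells. Besides Cd69 and Mef2c, the ubiquitin ligase subunit gene Fbxw7 (log2 difference −0.76, limma adjusted p = 0.000501) and the forkhead factor gene Foxo3 (−0.76, limma adjusted p = 0.0164) were lower. The call of Foxo3 ended without a filter (limma adjusted p = 0.0921) and with quantile normalization (limma adjusted p = 0.0684).

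Of 16 other positioning receptors and integrins, 12 were tested, 6 were higher and 1 was lower in IgG1 cells. That is 58.3% of those tested, beside 38.3% of all tested genes. Cxcr3, a receptor for inflammatory chemokines, was at 11.8, 10.9, 12.4, 7.39 and 7.78 FPKM in IgG1 libraries and at 4.29, 3.55, 1.88, 6.24 and 4.74 FPKM in IgM libraries (log2 difference 1.14, SE 0.23, limma adjusted p = 0.000652). Ccr10, a mucosal homing receptor of plasma cells, averaged 6.78 ± 2.30 FPKM in IgG1 and 3.11 ± 0.559 FPKM in IgM cells (log2 difference 0.88, limma adjusted p = 0.00284). The integrin gene Itgal and the selectin ligand gene Selplg were higher too, with log2 differences of 0.43 and 0.30. Cxcr5, the follicle homing receptor, was the lower one, at 0 to 0.923 FPKM in IgG1 and 0.955 to 4.00 FPKM in IgM libraries (log2 difference −1.62, limma adjusted p = 0.00026). With means of 0.265 FPKM in IgG1 and 2.95 FPKM in IgM cells, Cxcr5 entered the test only through its IgM level.

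**Figure D5:**
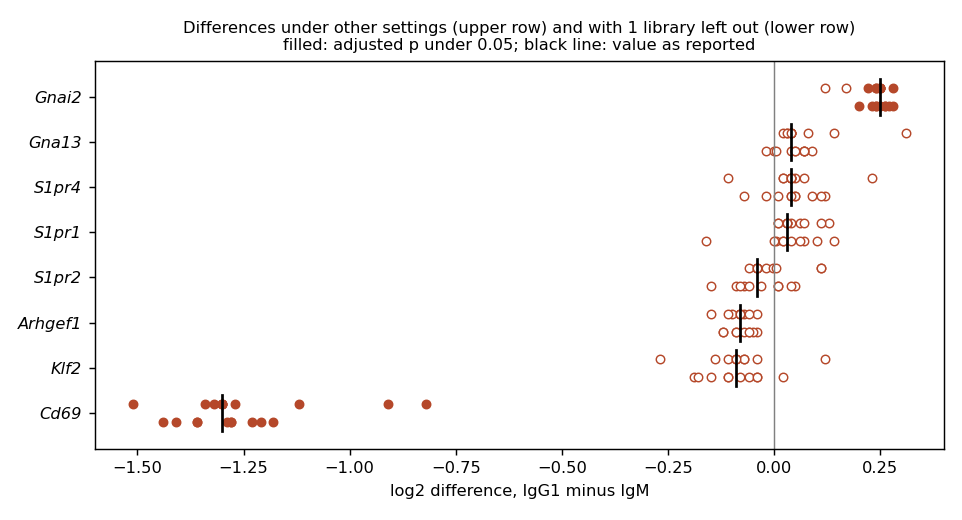
Log2 difference, IgG1 minus IgM (horizontal axis), of the 8 tested genes under each other setting (upper row of points) and with 1 library left out in turn (lower row), with the reported value as a black line. Cd69 stays between −1.51 and −0.82 with every point filled (adjusted p under 0.05), and Gnai2 has 2 open points, at 0.12 and 0.17.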

How the data were processed

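RNA was measured in 10 libraries, grouped by their titles. Total RNA (miRNeasy Micro) was turned into libraries by a SMART-Seq kit that keeps no strand, per the labels' protocols. HISAT2 2.1.0, Cufflinks 2.2.1, Cuffdiff and build GRCm38 are named in the submitters' processing notes, without role or setting, and the authors' annotation is not stated there. The deposited values are FPKM per the file headers, that is, relative values within a library, so abundant transcripts can lower the rest. Immunoglobulin genes held 62.5% (IgG1 replicate 2) to 73.5% (IgM replicate 3) of the summed FPKM. The sum of all other genes was 490015 (IgM replicate 2) to 527830 FPKM (IgG1 replicate 4).

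Of 47719 identifiers, 47305 matched GENCODE release M21 (GRCm38) and 414 did not. The test was limma 3.58.1 in R 4.3.3 (trend and robust, group as the only term, two-sided) on log2(FPKM + 1) of 9900 genes averaging 1 FPKM or more, with Benjamini-Hochberg adjustment over all of them. Differences are IgG1 minus IgM and understate changes of low genes. Members and lists were chosen with earlier results of these data known. Named were the 9 members, up to 4 genes that passed per list and direction by smallest p, genes most like each member (mean of at least 5 FPKM; up to 3 for each gene that passed and 1 for the others; a few genes that the rule or lists hold are not reported here) and markers of the lists. Sphk1, Spns2, Bcl6, Gcsam, Fos, Btg2 and the T cell genes were picked from their lists after values were seen. Depth was estimated from the smallest steps in FPKM, assuming fragments of 200 bases; it gives relative precision and no counting interval. Promoter windows are from RefSeq (GRCm38.p6).

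On data simulated for this comparison over 9900 genes, 50 genes each were altered by factors of 1.5, 2, 3 and 4 in FPKM + 1. The test recovered 32%, 78%, 92% and 96% of them in that order, with 7 calls among genes left as they were. Far fewer genes were altered there than passed in the data, and the adjusted p depends on that share, so these rates do not carry over directly. Alternatives changed the pseudocount (0.1 or 5), the filter (none, or 5 FPKM), the scaling (median ratios, a total that leaves out immunoglobulin genes, or quantiles), the variance model (plain eBayes, or weighted arrays), added a replicate block, took out length and GC trends, or left out each library in turn. Tables and plots used Python 3.11.15, pandas 2.3.3, numpy 2.4.6 and matplotlib 3.10.9.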

Additional observations from a re-analysis of the deposited data

Results flagged for a closer look

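A single library held a value far from the other 4 of its group for 2 low receptors, among 29 groups of values checked with Dixon's ratio, which chance passes in about 5% of groups. The other 4 values are all 0, so any value above 0 would have stood out, and a listed 0 can be a failed estimate. S1pr3 was at 0.102 FPKM in IgG1 replicate 2 and listed at 0 in the other IgG1 libraries, and its share of summed receptor FPKM, which restates that value, was 0.335% there. S1pr5 was at 0.102 FPKM in IgG1 replicate 2 and listed at 0 in the other IgG1 libraries. That library had an estimated 37290000 fragments, and IgG1 replicate 3, at 37730000, had both genes at 0.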

How the results depend on the processing

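Cd69 kept its direction and its call under all 21 other settings, with 1 library left out giving −1.44 to −1.18. Gnai2 kept its direction and lost its call under 2 settings: quantile normalization (0.17, adjusted p = 0.0722) and removal of length and GC trends (0.12, adjusted p = 0.191); with 1 library left out it was 0.20 to 0.28. None of the 6 genes that did not pass was called under any setting, and of these only Arhgef1 kept its sign throughout (Klf2 has no value at a minimum of 5 FPKM). S1pr2 turned to 0.11 with quantile normalization, to 0.004 with array weights and to 0.11 without length and GC trends, and ran from −0.15 to 0.05 with 1 library left out. S1pr4 turned to −0.11 without length and GC trends and ran from −0.07 to 0.12 with 1 library left out. Klf2 turned to 0.12 with quantile normalization and ran from −0.19 to 0.02, S1pr1 from −0.16 to 0.14 and Gna13 from −0.02 to 0.09 with 1 library left out. Without length and GC trends Gna13 was at 0.31 (adjusted p = 0.0747) and Klf2 at −0.27. Genes called lower numbered 1320 without length and GC trends, in place of 2001. The cause of these changes was not tested. Shares and levels of the receptors moved by less than 1 SD under their alternatives. Libraries with the same replicate number did not deviate together (correlations −0.0357 to 0.0966 over 5 pairs, with 4 of 10 libraries closest to their own number), and the replicate block gave 3701 calls in place of 3792 and changed no call of the 8 genes. S1pr3 was estimated at 12 to 67 fragments in the 5 libraries where it was above 0, and S1pr5 was above 0 in 1 library only.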
